A study of Mus musculus with 4 samples.

Results

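Chemokines are small secreted proteins that attract cells carrying matching receptors. The 5 genes described here, Ccl3, Ccl4, Ccl5, Cxcl10 and Xcl1, were chosen by symbol, and all 5 were found under the same Ensembl identifier in the gene lists of all 4 libraries, among 31914 genes over the series. They were followed in single cells of C57BL/6J mouse embryos, in a study concerned with LTi (lymphoid tissue inducer) cells, innate lymphocytes of the fetus needed for lymph nodes to form. Fetal liver and embryonic periphery were each sampled at E13.5 and at E14.5, and each of these 4 groups was 1 library of live cells sorted as CD45+ F4/80- IL7Ra+. The labels give no genetic change and no treatment for any group. How many embryos were pooled is not given in the sources used here. Fetal liver was made with version 3 and periphery with version 2 of the 10x Genomics 3' kit, so tissue and kit cannot be told apart. With 1 library per group there is no replicate check, no test was made, and each comparison describes these libraries only.

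Ccl3 and Ccl4 encode the inflammatory chemokines MIP-1 alpha and MIP-1 beta, and Ccl5 encodes RANTES. Cxcl10 encodes an interferon-inducible ligand of Cxcr3, and Xcl1 encodes lymphotactin, the ligand of Xcr1 on cross-presenting dendritic cells. In adults, natural killer cells, activated T cells and myeloid cells are well known sources, and many innate lymphocytes hold Ccl5 or Xcl1 transcripts before any stimulus. On GRCm38, by the GENCODE M21 annotation, Ccl5 (chr11:83525778-83530518, minus strand), Ccl3 (chr11:83647844-83649355, minus strand) and Ccl4 (chr11:83662584-83664683, plus strand) are protein-coding neighbours. A gap of 117325 bp separates Ccl5 from Ccl3, and one of 13228 bp separates Ccl3 from Ccl4. Cxcl10 lies at chr5:92346638-92348889 and Xcl1 at chr1:164931644-164935527, both on the minus strand.

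The promoters of Cxcl10 and Xcl1 are shown because these 2 genes were the most narrowly distributed over cells in fetal liver. RefSeq windows on GRCm38.p6 matched 3 of the 5 genes (Ccl3, Cxcl10 and Xcl1). The 250 bases before each start site are given 5′ to 3′ on the strand of the gene, with motif matches in capitals, for Cxcl10 at chr5:92348890-92349139 and for Xcl1 at chr1:164935523-164935772.
Cxcl10: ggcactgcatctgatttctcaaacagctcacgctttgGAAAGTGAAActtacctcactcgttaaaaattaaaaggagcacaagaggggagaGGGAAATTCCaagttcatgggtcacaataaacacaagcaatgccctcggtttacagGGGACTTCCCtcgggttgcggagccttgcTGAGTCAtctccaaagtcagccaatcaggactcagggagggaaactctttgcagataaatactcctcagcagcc
Xcl1: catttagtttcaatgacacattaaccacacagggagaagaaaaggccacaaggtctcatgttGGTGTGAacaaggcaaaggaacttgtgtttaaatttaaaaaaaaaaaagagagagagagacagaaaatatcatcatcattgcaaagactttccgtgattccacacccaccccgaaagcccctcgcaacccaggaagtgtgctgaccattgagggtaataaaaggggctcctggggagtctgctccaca
Both strands were searched for 5 motifs, which did not overlap each other in these windows. The Cxcl10 window held the interferon response motif, searched as GAAA, any 2 bases and GAAA, 213 bases before the start, which 2.98% of 32851 such windows hold. It also held the NF-kB motif, searched as GGGA, any 4 bases and CC, at 159 bases and, on both strands, at 103 bases before the start (in 17.6% of windows) and the AP-1 motif TGANTCA at 74 bases (6.75%). The Xcl1 window held the T-box motif GGTGTGA at 188 bases before the start (3.33%). The Ccl3 window held none of these, and TATAAA (12.4% of windows) was in none of the 3 windows. A match describes letters in the window and is not a mapped binding site.

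In order of fetal liver and then periphery, each with the earlier stage first, 10250, 10854, 4166 and 4325 cells were kept, from deposited totals of 212034840, 208229937, 53229734 and 44599592 UMIs (unique molecular identifiers, which count captured transcripts once). Their median depths were 18445.5, 15621.5, 11121 and 8457 UMIs in that order. Levels are given as CPM, a gene's UMIs relative to all UMIs, summed over the cells concerned, with exact 95% Poisson intervals in parentheses that cover counting error only. The stage pairs of each tissue shared 29 and 33 cell barcodes, and pairs across tissues at most 3. The sort was labelled as LTi cells, while LTi-like cells by their markers made up 4.04 and then 2.02% of fetal liver cells, and 13.51 and then 74.2% of periphery cells, in order of stage. Unnamed periphery clusters P1, P8 and P11 also met the LTi marker count but were passed over by the naming rule, and with them the periphery shares were 53.3 and 78.3%, a comparison added after the data were seen. Other clusterings named from 531 to 1242 periphery cells LTi-like at E13.5, against 563 here. Clusters were made without the 5 chemokines, and a name ending in "-like" rests on markers that do not include them.

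Ccl5 and Cxcl10 stood far higher in the periphery than in the fetal liver libraries, and all 5 genes were at their highest in periphery at E13.5. Ccl3 stood at 107 (105 to 108) and 107 (106 to 109) CPM in the earlier and later fetal liver library, and at 157 (154 to 161) and 90.6 (87.8 to 93.6) CPM in periphery. Its fetal liver levels overlapped, and periphery at E14.5 was the lowest library. Ccl4 stood at 149 (147 to 151) and 124 (123 to 126) CPM in fetal liver and at 287 (283 to 292) and 41.8 (39.8 to 43.8) CPM in periphery, the highest and the lowest library both coming from periphery. Ccl5 stood at 21.9 (21.2 to 22.5) and 19.6 (18.9 to 20.2) CPM in fetal liver, against 597 (590.1 to 604) and 272 (267 to 277) CPM in periphery. Neither tissue's range of Ccl5 came near the other's. Cxcl10 stood at 7.09 (6.72 to 7.47) and 14.4996 (13.9 to 15.1) CPM in fetal liver, and at 133 (129.7 to 136) and 72.4 (69.8 to 75.0) CPM in periphery. Xcl1 was rare in every library, at 0.576 (0.475 to 0.691) and 1.39 (1.22 to 1.57) CPM in fetal liver and 7.001 (6.29 to 7.77) and 1.60 (1.24 to 2.03) CPM in periphery. Its intervals overlapped between both E14.5 libraries, and its level in periphery at E13.5 came from 354 UMIs in 100 cells.

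**Figure D1:**
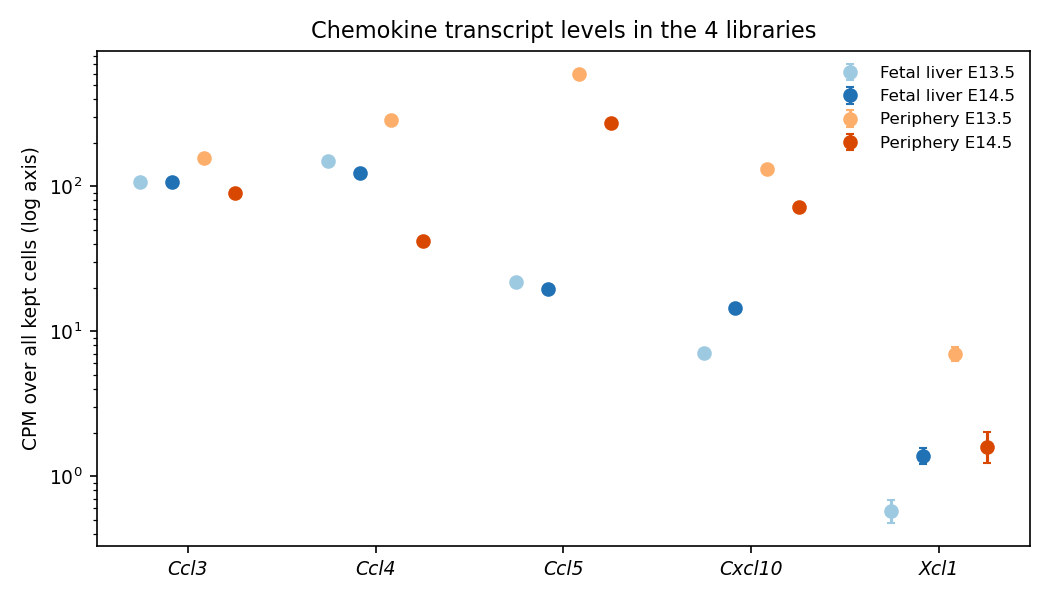
CPM of the 5 chemokine genes over all kept cells of each library (log axis), with 1 point per library and exact 95% Poisson intervals that are mostly smaller than the points. Ccl5 runs from 19.6 CPM in fetal liver at E14.5 to 597 CPM in periphery at E13.5, while Ccl3 stays between 90.6 and 157 CPM.

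Between the stages of periphery, 3 of the 4 chemokine genes measured at 10 CPM or more were at least 2-fold lower at E14.5, after adding 5 CPM to both sides and taking off the median fold of all measured genes. The log2 folds were -2.87 (-2.95 to -2.79) for Ccl4, -1.34 (-1.39 to -1.30) for Ccl5 and -1.06 (-1.14 to -0.98) for Cxcl10, and Ccl3, at -0.99 (-1.06 to -0.91), lay just inside the limit. The median of the 4 was -1.20, where the median of all 7241 measured genes is 0 by construction. Of all measured genes, 2.28% were that much lower at E14.5 and 3.73% differed that much in either direction. Without centring on the all-gene median (0.23) Cxcl10 stood at -0.83, and 2 of the 4 passed the limit.

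In fetal liver none of the 4 measured chemokine genes passed the same limit between stages, against 1.64% of 7745 measured genes. Cxcl10 had a log2 fold of 0.72 (0.64 to 0.81), Ccl4 of -0.22 (-0.25 to -0.19), Ccl5 of -0.10 (-0.17 to -0.02) and Ccl3 of 0.04. With each cell given equal weight Cxcl10 reached 1.02, and 1 of 4 passed.

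Periphery against fetal liver at E13.5 showed 3 of the 4 measured chemokine genes past the limit, all higher in periphery, with log2 folds of 4.90 for Ccl5, 3.92 for Cxcl10 and 1.33 for Ccl4, and Ccl3 stood at 0.95. Of 7985 genes, 12.7% were that much higher in periphery at this stage and 23.2% differed in either direction, so a large share of genes separated these 2 libraries. At E14.5 Ccl5 (3.66) and Cxcl10 (2.16) were again higher in periphery, Ccl4 (-1.30) was lower, and Ccl3 stood at -0.06. The background there was 12.3% higher and 11.4% lower of 8121 genes, or 23.6% in either direction. The 4 comparisons share libraries in pairs, so their folds are not independent of each other.

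The genes differed in how many cells held them. To set shares side by side across depths, each cell was thinned to 3000 UMIs, which left out 199 and 402 fetal liver cells and 127 and 221 periphery cells, in order of stage. Ccl4 was then found in 23.1 and 16.5% of fetal liver cells, and in 16.1 and 2.39% of periphery cells (unthinned 47.2, 32.1, 24.5 and 5.29%). Ccl3 was found in 19.7, 14.1, 10.6 and 4.43% of cells (unthinned 45.9, 29.8, 19.0 and 8.18%), in the same order. Both were thus widely spread in fetal liver. Ccl5 was found in 2.15, 1.79, 25.4 and 16.1% of cells (unthinned 4.95, 3.24, 39.0 and 25.9%), and Cxcl10 in 0.567, 1.18, 14.3 and 9.21% (unthinned 1.46, 2.39, 25.6 and 16.5%). Xcl1 was found in 0.0995, 0.163, 1.24 and 0.171% (unthinned 0.254, 0.322, 2.40 and 0.347%). Intervals for these shares are exact Clopper-Pearson, for example 24.1 to 26.8% for thinned Ccl5 in periphery at E13.5.

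B lineage-like cells, taken as cells with little expression of these chemokines, were set beside all cells. Free RNA in the droplets and the cells' own transcripts were not told apart. At the thinned depth Ccl3 was found in 1.47 and 1.49% of B lineage-like cells in fetal liver and in 6.02 and 1.55% in periphery. Ccl4 was found in 2.94, 2.60, 14.05 and 3.72%. Ccl4 in periphery at E14.5 was thus no more frequent over all cells (2.39%) than in B lineage-like cells (3.72%), so its share over all cells there is not read as expression across the library. Its UMIs were concentrated in P9 and P14, described below, which held 22.5 and 38.2% of them. P9 cells had a median depth of 1354 UMIs in that library, so thinning left out most of P9. In periphery at E13.5 the share of Ccl4 in B lineage-like cells (14.05%, interval 10.3 to 18.5) was also close to that in all cells (16.1%). Single cells of B lineage-like cluster P6 held up to 50 Ccl4 UMIs at E13.5 and 23 at E14.5. Ccl5 was found in 0 of 136 B lineage-like cells of the earlier fetal liver library, which allows a share of up to 2.21% by the limit of 3 counts, and in 0.0571% of 3500 at E14.5, and in 2.68 and 1.86% in periphery. Cxcl10 was found in 0 of the same 136 cells, in 0.0571% at E14.5 and in 0.334 and 0.929% in periphery, and Xcl1 in 1 of 299 cells of periphery at E13.5. It was in none in the other libraries, which allows up to 2.21 and 0.0857% in fetal liver and 0.929% in periphery at E14.5. Median depths of B lineage-like cells were 12989 and 16266 UMIs in fetal liver and 13890 and 18417 in periphery.

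Few cells held most UMIs of some of these genes. The 1% of fetal liver cells richest in each gene held, in order of stage, 83.5 and 86.4% of Ccl5 UMIs and 96.7 and 94.2% of Cxcl10 UMIs, but 15.3 and 23.3% of Ccl3 and 13.0 and 21.4% of Ccl4. In periphery the shares were 31.7 and 50.6% for Ccl5, 35.9 and 42.2% for Cxcl10, 44.4 and 68.7% for Ccl3 and 28.6 and 83.7% for Ccl4. Xcl1 was held almost wholly by them, at 100% in both fetal liver libraries and 80.2 and 100% in periphery. Among the other genes Ccl3 and Ccl4 were thus the dispersed ones in fetal liver and the concentrated ones in periphery at E14.5. Single cells reached 573 UMIs of Ccl3 and 494 of Ccl5 in periphery at E13.5, and 297 of Cxcl10 and 412 of Ccl4 in fetal liver at E14.5. Of the 251 Xcl1 UMIs of fetal liver at E14.5, 129 came from 1 cell.

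**Figure D2:**
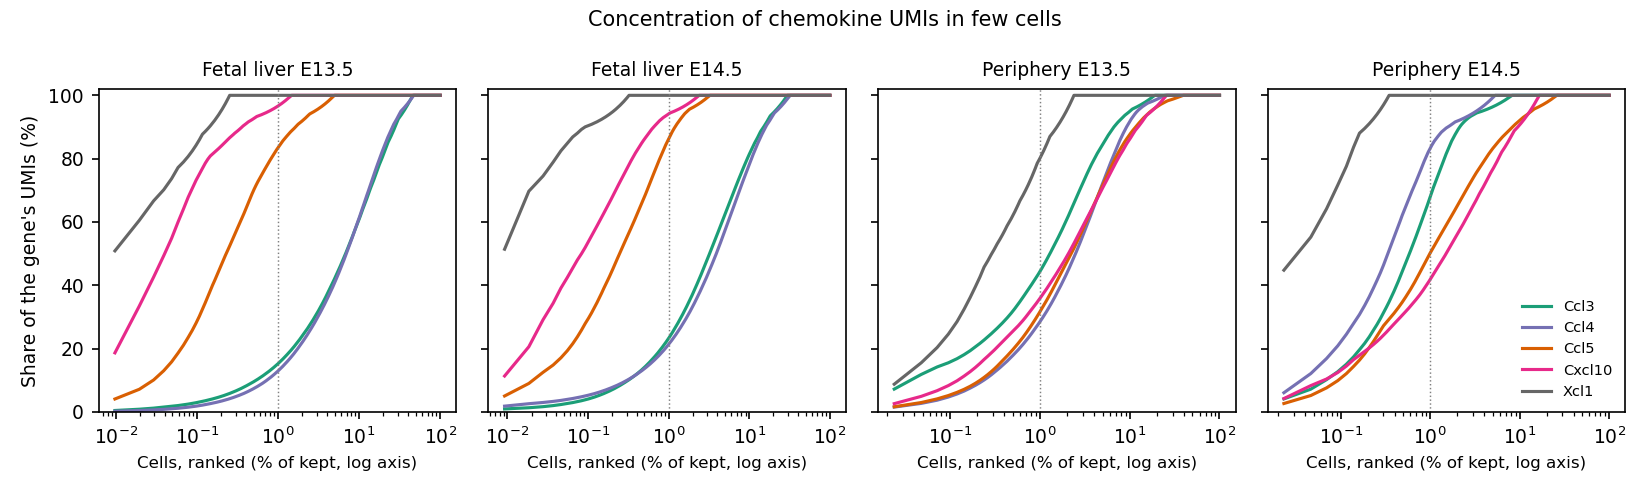
Cumulative share of each gene's UMIs (%) over kept cells ranked from the richest in that gene (log axis), in 4 panels for the 4 libraries, with a dotted line at 1% of cells. In fetal liver the curves of Cxcl10 and Ccl5 stand above 83% at that line and those of Ccl3 and Ccl4 below 24%, while in periphery at E14.5 the Ccl4 curve is at 83.7%.

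Ccl3 had its highest level in 1 mast cell or basophil-like cluster of each tissue, both led by the basophil protease gene Mcpt8. In fetal liver cluster FL13, led by the basophil protease genes Mcpt8 and Prss34 and by Cd200r3, it stood at 1408 (1350.4 to 1467) CPM in the earlier and 1457 (1430 to 1484) in the later library, in 109 and 672 cells. In periphery cluster P14, led by Mcpt8, Il6 and Osm, it stood at 2993 (2888 to 3101) and 2967 (2857 to 3081) CPM, in 56 and 61 cells. The other such cluster, P18, led by the mast cell protease genes Cma1 and Tpsb2, had 7 and 6 cells with 1 and 0 Ccl3 UMIs. The level in FL13 was thus steady between stages. In P14 it was alike as summed, but without the richest cell of each stage it was 2505 and 2837 CPM. The share of all Ccl3 UMIs in these 2 clusters went from 10.6 to 57.4% in fetal liver and from 38.5 to 71.8% in periphery. The next clusters were far below, FL4 at 152 CPM at E13.5 and the shallow FL18 (57 cells) at 651 CPM at E14.5. In periphery the next was the monocyte or macrophage-like P9 at 634 (603 to 667) and 871 (793 to 955) CPM. P9 was shallow at E14.5, with a median of 1354 UMIs in 105 cells, against 12417.5 in 180 cells at E13.5. In other fetal liver clusters Ccl3 was lower and broad. It lay between 45.2 and 152 CPM in stem or multipotent progenitor-like FL3, lymphoid progenitor-like FL5, FL8 and FL9, and unnamed FL1, FL2 and FL4 over both stages, and at 46.4 and 29.1 CPM in innate lymphoid progenitor-like FL7 and 64.1 and 40.6 CPM in unnamed FL6. It was 12.9 and 6.27 CPM in B lineage-like and 13.1 and 12.1 CPM in LTi-like cells of fetal liver.

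Ccl4 was most abundant in plasmacytoid-like, lymphoid progenitor-like, myeloid and some unnamed clusters, and low in LTi-like cells. In periphery at E13.5 it stood at 1308 (1254 to 1364) CPM in plasmacytoid-like cluster P12, at 892 (855 to 929.99) in P9 and at 820.2 (803 to 838) in P4. P4 is an unnamed cluster led by Cavin2, Hmga2, the progenitor marker Cd34, Ddit4l, Tsc22d1 and the cytokine receptor gene Flt3, with Ccl4 itself also among its leading genes. P4 alone held 56.7% of the Ccl4 UMIs of periphery at E13.5. It had 633 cells at that stage and 30 at E14.5, and P12 had 130 and 7, so neither has a reported level at E14.5. P9, shallow at E14.5 (median 1354 UMIs), stood at 761 (688 to 840) CPM there, the highest level of that library, with an interval that overlapped that of P14. In fetal liver it was high in plasmacytoid-like FL10 (280 and 317 CPM), unnamed FL2 (276 and 378) and lymphoid progenitor-like FL8 (247 and 322). FL10 and FL2 were highest at E13.5, with overlapping intervals, and FL2 at E14.5, followed by FL13. FL2, like P4, was led by Cavin2. In mast cell or basophil-like FL13 Ccl4 stood at 80.8 (67.5 to 96.0) CPM in the earlier library and 327 (314 to 340.0) in the later, a log2 fold of 1.97 within the cluster, whereas in P14 it stood at 756 (704 to 811) and 727 (673 to 784) CPM. Without the 1 cell of P14 richest in Ccl4 the E13.5 value was 547 CPM. B lineage-like cells of periphery held 107 (97.7 to 117) and 13.6 (10.8 to 16.9) CPM. In the same cells at E13.5 Ccl5 stood at 7.49 CPM and Cxcl10 at 2.72 CPM. What part free RNA has in the Ccl4 of these B lineage-like cells was not tested.

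Ccl5 was highest in clusters P5 and P10 of periphery and in FL15 of fetal liver. In unnamed cluster P5, led by Cck, Gm4208, the T cell receptor complex gene Cd3g, Tcrg-C4 and Tnfrsf9 besides Ccl5 itself, it stood at 3071 (3025 to 3117) CPM in the earlier and 2997 (2916 to 3079) in the later library, in 463 and 151 cells. In P10, led by AW112010 and the interferon-inducible genes Gbp2, Igtp and Ifi47 besides Cxcl10 itself, it stood at 1451 (1391 to 1514) and 1230.4 (1171 to 1292) CPM of Ccl5. P10 was named innate lymphoid progenitor-like on 6 of 7 markers, none of which was among its leading genes. In unnamed FL15, led by Arg1, Tnfrsf9, Cd3g, Rora, Trbc1, Cxcr6 and Ifng besides Ccl5 and Cxcl10 themselves, it stood at 1449 (1394 to 1506) and 792 (764 to 820) CPM. P5 held 56.8 and 45.7% of the Ccl5 UMIs of periphery, and FL15 held 60.2 and 85.4% of those of fetal liver. LTi-like cells held a lower level, 187 (176 to 198) and 110 (96.8 to 124) CPM in fetal liver and 196 (186 to 206) and 129 (125 to 133) CPM in periphery. These periphery cells came mostly from P7 at E13.5 and from P0, P2 and P3 at E14.5. In unnamed P8, led by Cfp and Bcl2a1b with the class II genes H2-Aa, H2-Eb1 and H2-Ab1 among its leading genes, Ccl5 stood at 1006 (979 to 1035) CPM at E13.5. P8 had 7 of 8 LTi markers at 20 CPM. With P1, P8 and P11 counted as LTi-like, Ccl5 in these cells of periphery was 362 (354 to 370) and 148 (144 to 153) CPM. It was 0.539 and 0.407 CPM in B lineage-like cells of fetal liver.

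Markers of several lymphocyte types met in P5, P10 and FL15. In P5 at E13.5, 4 of 8 T cell markers and 3 of 11 group 1 innate lymphoid or natural killer markers reached 20 CPM, with sums of 1038 and 1545 CPM, of which the granule gene Nkg7 gave 1006. In FL15 the counts were 4 of 8 and 5 of 11 at E13.5 and 4 of 8 and 6 of 11 at E14.5. In P10 they were 2 of 8 and 6 of 11, then 3 of 8 and 6 of 11. Innate lymphoid progenitor markers reached 20 CPM for 7 of 7 in FL15 and 6 of 7 in P5 and P10 at both stages. LTi markers did so for 3 of 8 in FL15 and 5 of 8 in P5 at both stages, and for 6 and then 5 of 8 in P10. Monocyte or macrophage markers summed to 16.7 and 17.1 CPM in FL15, to 66.6 and 46.6 CPM in P5 and to 71.4 and 30.2 CPM in P10. Group 2 innate lymphoid markers reached 20 CPM for 4 of 6 in sub-clusters P5.1, FL15.1 and P10.1, described below, and for fewer in the other sub-clusters. By the naming rule P5 scored first as group 2 innate lymphoid and then as innate lymphoid progenitor. FL15 scored as innate lymphoid progenitor and then as group 1 innate lymphoid or natural killer. All of these were passed over. No cluster was named group 1 or natural killer-like, FL15 and P5 stayed unnamed, and the name of P10 does not come from its leading genes. In monocyte or macrophage-like P9 Ccl5 stood at 412 (387 to 438) CPM in the earlier library. It stood at 15.5 (6.67 to 30.4) CPM in the later, where P9 was shallow (median 1354 UMIs). Without 1 cell that held 403 of the 1013 Ccl5 UMIs of P9 the E13.5 value was 252 CPM.

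**Figure D3:**
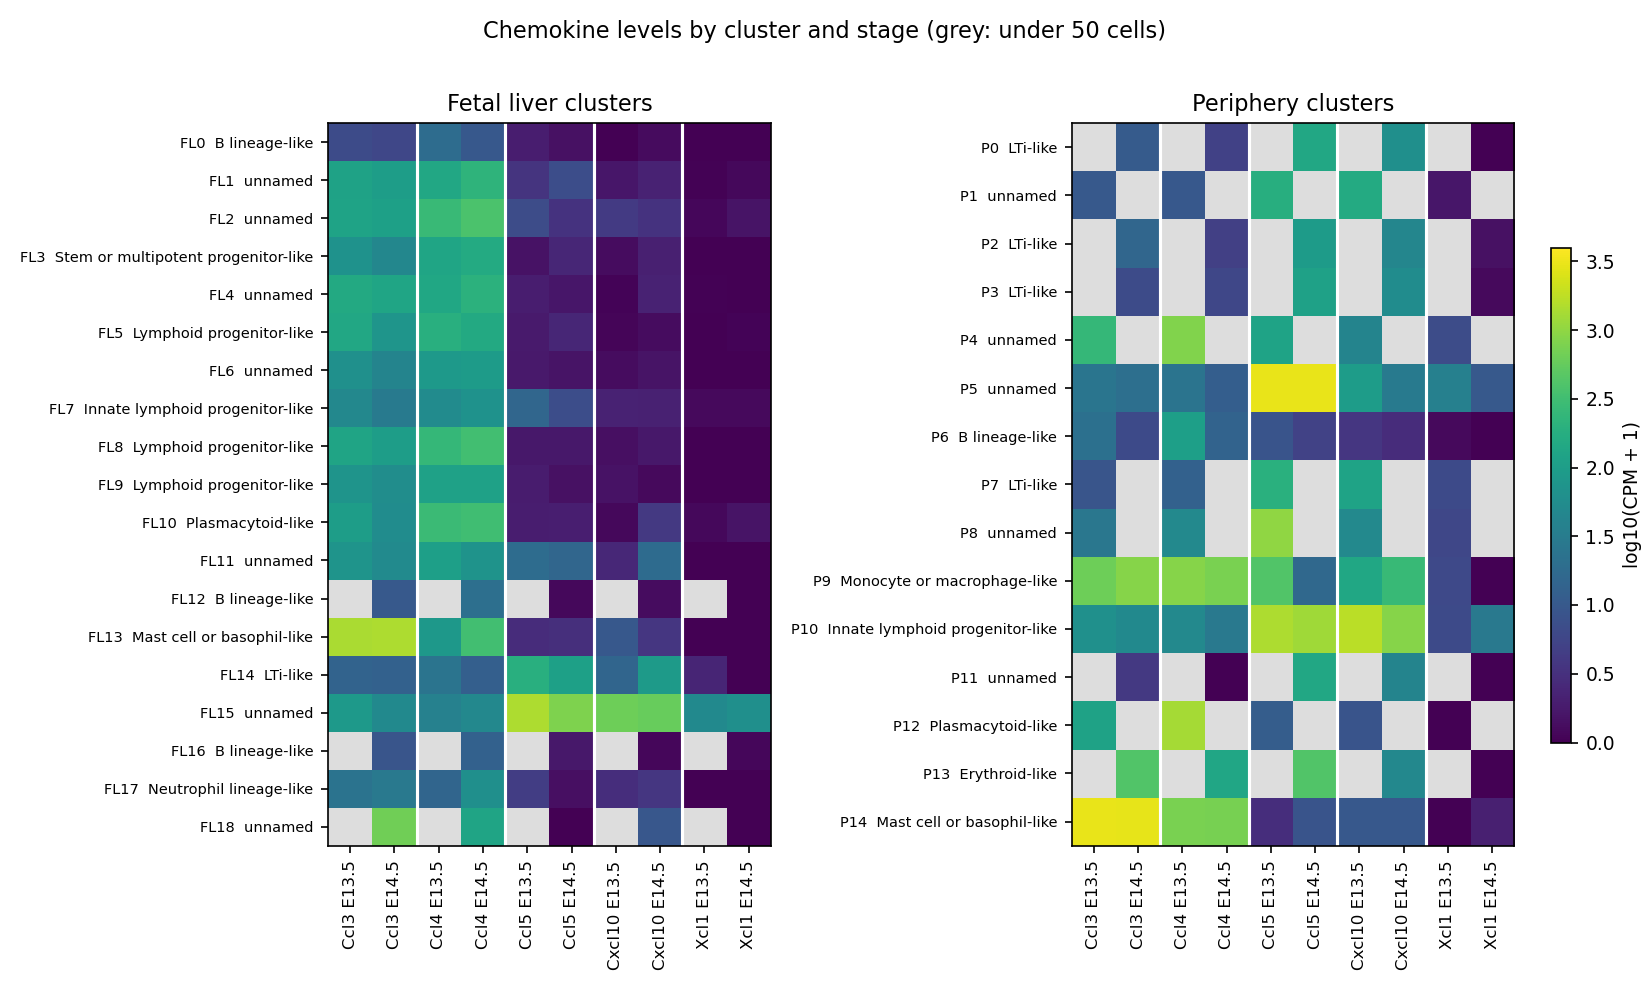
Levels of the 5 genes as log10(CPM + 1) in each cluster (rows) and stage (columns) of fetal liver and periphery, with grey where a cluster had under 50 cells. FL13 and P14 stand out for Ccl3 at 1408 to 2993 CPM, P12 for Ccl4, P5 for Ccl5 at about 3000 CPM, and P10 and FL15 for Cxcl10.

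Cxcl10 was highest in P10 and FL15. In P10 it stood at 1698 (1633 to 1765) CPM and then 894 (843 to 947) CPM, a log2 fold of -1.15 within the cluster, in 123 and 121 cells that held 37.9 and 38.1% of the library's Cxcl10. In FL15 it stood at 638 (601 to 676) and 583 (559 to 607) CPM and made up 81.7 and 84.8% of the library's Cxcl10. The richest cell of FL15 at E13.5 held 262 of 1147 UMIs, and without it the level was 495 CPM. LTi-like cells differed in direction between the tissues. In those of the liver, all of cluster FL14, Cxcl10 stood at 13.9 (11.1 to 17.3) CPM and then 91.3 (79.5 to 105) CPM. In periphery it stood at 121 (114 to 129) and 55.4 (52.7 to 58.2) CPM. The log2 folds were 2.31 and -1.29, and the difference between them was not tested. In the unnamed P1, led by Cldn5, Crem and Areg and made of 1128 cells of the earlier and 9 of the later stage, Cxcl10 stood at 159 (151 to 166) CPM. P1 had 8 of 8 LTi markers at 20 CPM, the highest being Il22 at 1905 CPM. With P1, P8 and P11 counted as LTi-like, Cxcl10 in these cells of periphery was 122 (118 to 127) and 54.95 (52.3 to 57.7) CPM.

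Xcl1 was highest in FL15, P5 and, at E14.5, P10. In FL15 it stood at 50.6 (40.7 to 62.1) and 61.7 (54.0 to 70.1) CPM, with 79.8 and 93.6% of the library's Xcl1 UMIs. Only 6.72 and 5.94% of its cells held any, and without the richest cell of each stage the levels were 18.4 and 27.9 CPM. In P5 it stood at 35.6 (30.9 to 41.0) and 9.20 (5.26 to 14.9) CPM, and in P10 at 5.34 (2.30 to 10.5) and 27.9 (19.5 to 38.6), the latter being 4.67 CPM without 1 cell. In periphery at E13.5 P4 (5.87 CPM), P7 (5.46) and P9 (5.29) were level with P10 within their intervals, and P4 and P7 held 16.7 and 12.1% of the Xcl1 UMIs. In mast cell or basophil-like FL13 it was at 0, and in B lineage-like cells it was at most 0.227 CPM.

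Splitting P5, P10 and FL15 further, a step added after their values had been seen, showed that the chemokines were uneven inside each. In FL15, sub-cluster FL15.2 (71 cells) held Cxcl10 at 2804 CPM, Ccl5 at 1809, Xcl1 at 336, Ccl3 at 222 and Ccl4 at 167. It held the interferon gamma gene Ifng at 396 CPM and the T-box factor gene Tbx21 at 70.7. Its leading genes included Xcl1, Cxcl10, Ccl4 and Ccl3 themselves beside H2-Aa, Cd74 and Cxcl9. In FL15, 1 cell held 58 of 91 Xcl1 UMIs at E13.5 and another held 129 of 235 at E14.5, so the Xcl1 level of FL15.2 rests largely on few cells. FL15.0, with Ifng at 332 CPM and led by the neutrophil genes S100a9 and S100a8, held Cxcl10 at 579 CPM and Xcl1 at 9.90, and FL15.5, with no Ifng UMI, held Cxcl10 at 3.53 CPM but Ccl5 at 1033. FL15.3 held Ifng at 304 CPM with Cxcl10 at 187 CPM. In P5 the highest Ccl5 was in P5.0 (108 cells, led by Ppbp and the granzyme gene Gzma, with Ccl5 itself among its leading genes) at 8290 CPM, with Ifng at 14.3 and Cxcl10 at 12.4 CPM. P5.6 (50 cells, 48 of them from E14.5) held Ccl5 at 4476 CPM. P5.1, with Ifng at 164 CPM, held the highest Cxcl10 of this cluster at 211 CPM. In P10 Cxcl10 was lowest in P10.0 (52 cells, 51 of them from E14.5), at 460 CPM with Ifng at 141 CPM. It was highest in P10.4 (27 cells, all from E13.5), at 2284 CPM with the lowest Ifng of P10, 81.4 CPM. P10.1 (42 cells, 39 of them from E13.5) had the highest Ifng of P10, at 312.5 CPM, with Cxcl10 at 1295 CPM. Ifng and Cxcl10 thus did not rank alike in P10, where small sub-clusters of different stages are set side by side. Xcl1 was highest in P10.2, at 78.7 CPM. Leading genes of P10.2 included the natural killer receptor gene Klra8, Xcl1 itself and the macrophage gene C1qc. In P10 at E14.5, 1 cell held 30 of 36 Xcl1 UMIs, so the value for P10.2 is not read as a level of its 40 cells.

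**Figure D4:**
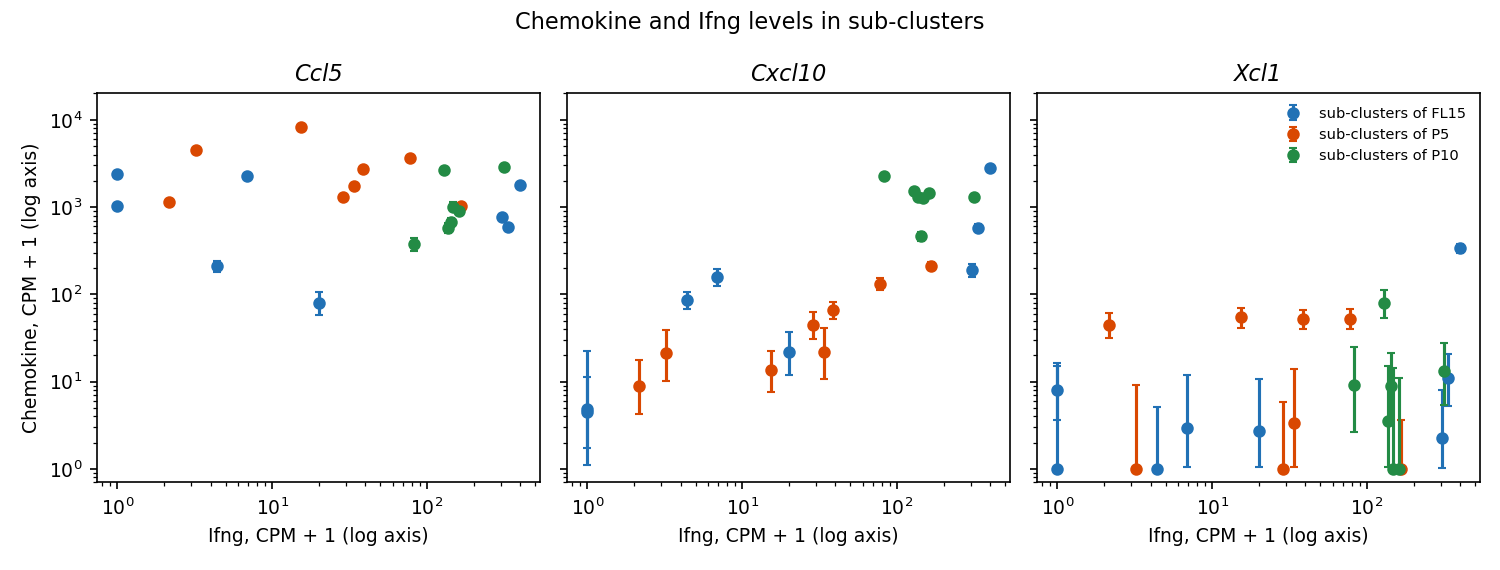
Ccl5, Cxcl10 and Xcl1 levels against Ifng levels (CPM + 1, both axes logarithmic) in the sub-clusters of FL15, P5 and P10, with exact 95% Poisson intervals on the chemokine. Each sub-cluster is summed over both stages and holds 22 to 108 cells. FL15.5, with no Ifng UMI, holds Ccl5 at 1033 CPM and Cxcl10 at 3.53 CPM, and FL15.4, with Ifng at 5.90 CPM, holds Cxcl10 at 155 CPM. FL15.2, with Ifng at 396 CPM, is the highest of all for Cxcl10 and Xcl1, its Xcl1 resting largely on few cells.

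Which chemokines shared cells was counted at the thinned depth. In periphery at E13.5, 239 cells held both Ccl3 and Ccl4, 55.6% of the Ccl3 and 36.7% of the Ccl4 cells, where 10.6 and 16.1% of all cells held each. In fetal liver 816 and 543 cells held both, 41.3 and 36.9% of the Ccl3 cells and 35.2 and 31.6% of the Ccl4 cells. Inside P4 at E13.5, 81.7% of Ccl3 cells also held Ccl4 (138 of 169), where 52.0% of its cells held Ccl4. Inside P14 all 14 Ccl4 cells at E13.5 and all 17 at E14.5 held Ccl3, which was in 94.6 and 95.1% of its cells. Ccl5 and Cxcl10 were found together in 126 and 77 periphery cells, in order of stage. These were 12.3 and 11.7% of the Ccl5 cells, where Cxcl10 was in 14.3 and 9.21% of all cells. They were 21.8 and 20.4% of the Cxcl10 cells, where Ccl5 was in 25.4 and 16.1% of all cells. In fetal liver 24 and 36 cells held both, 42.1 and 29.3% of the Cxcl10 cells, where Ccl5 was in 2.15 and 1.79% of all cells. Inside P10, 37 and 28 cells held both, 48.7 and 54.9% of its Cxcl10 cells, where 54.1 and 51.7% of its cells held Ccl5. Inside FL15, 20 of 23 and 33 of 69 Cxcl10 cells held Ccl5, where 62.3 and 42.7% of its cells did. Inside P5, 28 of 38 and 4 of 8 Cxcl10 cells held Ccl5, where 72.0 and 64.4% of its cells did. Xcl1 cells held Ccl5 in 28 of 50 cases in periphery at E13.5, where 25.4% of all cells held Ccl5. In fetal liver they did in 7 of 10 and 9 of 17, where 2.15 and 1.79% of all cells did. Inside P5 at E13.5, 21 of 27 Xcl1 cells held Ccl5, where 72.0% of its cells did. Inside FL15 the counts were 6 of 8 and 9 of 12, where 62.3 and 42.7% of its cells held Ccl5.

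The lower levels in periphery at E14.5 were split arithmetically into the shares of clusters and the levels inside them. Named classes and unnamed clusters served as units, of which 5 of 14 in periphery and 3 of 17 in fetal liver had under 20 cells at a stage and took the level of the other stage. On the scale before the all-gene median is taken off, Ccl4 in periphery differed by -2.64 log2 units. E14.5 shares with E13.5 levels gave -2.02, and E13.5 shares with E14.5 levels gave -0.32. For Ccl3 the corresponding values were -0.76, -0.82 and 0.15, and for Ccl5 they were -1.12, -0.85 and 0.07. For these 3 genes the shares came nearer to the measured difference than the levels. With P1, P8 and P11 counted as LTi-like, this still held for Ccl3 (shares -0.77, levels 0.14) and Ccl4 (-1.93 and -0.32), but not for Ccl5, where both gave similar values (-0.42 and -0.40). Cxcl10 was the other way round, at -0.83 measured, 0.11 from shares and -0.57 from levels, or 0.14 and -0.88 with those clusters counted as LTi-like. In fetal liver Cxcl10 was measured at 0.69, with 0.69 from shares and 0.24 from levels. For Ccl5 in fetal liver shares (0.57) and levels (-0.58) had opposite signs and the measured value was -0.13. For Ccl3 they were 0.22 and -0.32, against 0.01 measured, and for Ccl4 -0.49 and 0.30, against -0.25. Unnamed clusters found mostly at 1 stage, such as P1 and P4, enter mainly as shares. A change of state that moves cells to another unit thus counts as a change of share. The LTi-like clusters were joined in their class, so the shift among them from P7 at E13.5 to P0, P2 and P3 at E14.5 counts as a change of level. With finer clusters (Leiden resolution 2) the value for Ccl5 in periphery from shares was -0.34 and that for Cxcl10 was -0.07, below 0 as also at resolution 0.5 (-0.06).

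**Figure D5:**
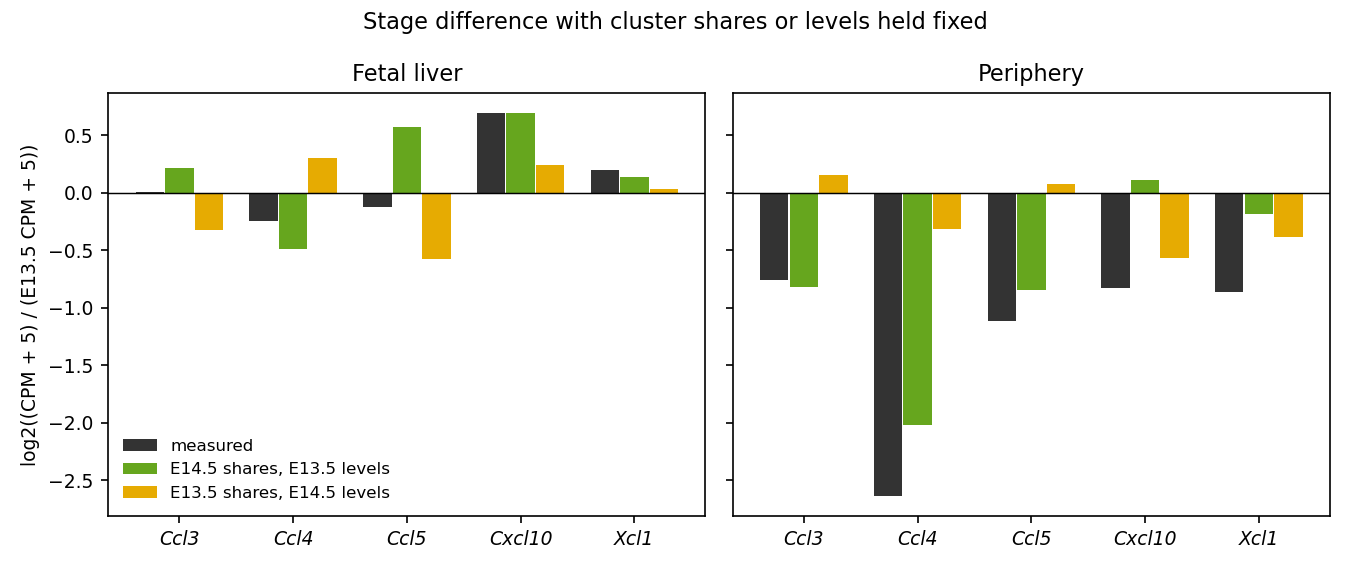
Log2 difference of E14.5 from E13.5 for each gene in fetal liver and periphery, as measured (dark), with E14.5 cluster shares and E13.5 levels (green), and with E13.5 shares and E14.5 levels (yellow), on log2((CPM + 5) / (CPM + 5)) before the all-gene median is taken off. With the clusters as named, the green bars of Ccl3, Ccl4 and Ccl5 follow the dark bars in periphery, at -0.82, -2.02 and -0.85, while for Cxcl10 the yellow bar (-0.57) is nearer.

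The genes with the most similar profile over clusters were taken in periphery, where the summed level of each chemokine was higher, over 20 cluster-by-stage sums and 7423 genes. The sums share libraries and the correlations are descriptions. Ccl3 was nearest to Plek, Pirb, Ier3, Asph and the chemokine gene Ccl9 (r from 0.92 to 0.95), and Ccl4 to the granule protease gene Prtn3, the urokinase receptor gene Plaur, Mapk3, the costimulatory gene Cd86 and Pdxk (0.89 to 0.94). Ccl5 was nearest to the TNF receptor family gene Tnfrsf9, Col9a3, Tnni1, Cd3g and the T cell receptor beta constant gene Trbc1 (0.91 to 0.92). Cxcl10 was nearest to Arsb, Pla2g16, the interferon-inducible GTPase gene Igtp, the immunoproteasome gene Psmb10 and the TNF receptor gene Tnfrsf1a (0.85 to 0.91). Xcl1 was nearest to Cd3d, Ugcg, Osgin1, Cd3g and Cd163l1 (0.81 to 0.89).

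Other genes of the chemokine system were read from fixed lists. Of 7 receptor genes only Ccr1 and Cxcr3 reached 10 CPM in periphery, at 20.6 and 26.7 CPM and at 30.3 and 35.0 CPM at E13.5 and E14.5, and in fetal liver only Ccr1 did, at 9.56 and 18.8 CPM (log2 fold 0.74). Neither passed the limit between stages, and both were past it in periphery against fetal liver at E13.5 (1.22 and 1.66), as was Cxcr3 (1.88) at E14.5. Ccr3 and Xcr1 were below 10 CPM in all 4 libraries. Of 31 other chemokine ligands in the files, 7 were measured between the periphery stages, where 1 was lower past the limit (Pf4, a platelet chemokine, 90.2 and 35.0 CPM, -1.48) and none was higher. Ccl12 stood at -0.75 and Ccl6 at 0.63. In fetal liver 3 were measured and none passed, Ccl6 at 0.76, Ccl9 at 0.34 and Ccl25 at 0.10. Between tissues 4 of 6 were higher in periphery at E13.5, led by Pf4 (4.56), Cxcl2 (4.10) and Ccl2 (2.88), and 5 of 7 at E14.5, led by Cxcl2 (3.13), Pf4 (2.99) and Ccl2 (2.43).

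Genes that are induced within minutes by stimulation or handling of cells also differed between these libraries, in both directions. Of 14 measured immediate early genes, 6 were past the limit lower and 2 higher at E14.5 in periphery, where 1.45% of all genes were that much higher. Crem (133 and 22.2 CPM, -2.57), the phosphatase gene Dusp2 (-1.57) and Ier3 (-1.52) differed most, and Jun (1.41) and Dusp1 (1.03) were higher. None of 14 passed between the fetal liver stages, where Nr4a2 stood at -0.98, Ier3 at 0.85 and Atf3 at -0.57. In periphery against fetal liver 7 were higher and 3 lower at E13.5, where 10.4% of all genes were that much lower, led by Jund (-3.79), Junb (3.33) and Crem (3.33), and 5 were higher and 3 lower at E14.5, led by Dusp2 (-4.81), Jund (-3.58) and Junb (3.15). The part of handling in the chemokine levels was not tested.

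The NF-kB pathway drives many chemokine genes. Of 10 measured NF-kB subunit and feedback genes, 2 were lower past the limit at E14.5 in periphery, Nfkb1 (100.5 and 52.8 CPM, -1.09) and Rel (-1.08), and none was higher, with Nfkb2 at 0.99. None of 7 passed in fetal liver, where Nfkbia stood at 0.89, Nfkb1 at -0.60 and Nfkbiz at 0.37. In periphery 8 of 10 were higher than in fetal liver at each stage and none was lower, led at E13.5 by the inhibitor gene Nfkbia (63.4 and 1327 CPM, 4.69), Nfkbiz (2.74) and Nfkbid (2.69), and at E14.5 by Nfkb2 (3.598), Nfkbia (3.51) and Relb (2.39).

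Cytokine genes often made beside these chemokines were mixed. In periphery 1 of 6 was lower past the limit at E14.5, Il1b (59.3 and 3.04 CPM, -3.23), and none was higher, with Csf2 at 0.91 and the lymphotoxin gene Lta at 0.63. In fetal liver 2 of 3 were higher at E14.5, Csf1 (1.30) and Lta (1.27), where 1.33% of all genes were that much higher and 0.31% lower, and Tnf stood at 0.81. All 5 measured were higher in periphery at E13.5, led by Lta (4.21), Il1b (3.58) and Il6 (3.23), and 4 of 5 at E14.5, led by Lta (3.58), Csf2 (2.07) and Il6 (1.95). Of 7 interferon response genes measured in periphery, 2 were lower at E14.5, Isg15 (36.6 and 11.2 CPM, -1.58) and Irf1 (-1.03), and none was higher, with Bst2 at -0.87. None of 6 passed in fetal liver, where Bst2 stood at 0.58 and Irf7 at -0.12. In periphery 5 of 7 were higher than in fetal liver at E13.5, led by Isg15 (1.67), Irf1 (1.47) and Gbp2 (1.44), and 1 of 7 at E14.5, Gbp2 (1.18), with Irf7 at 0.70. Of the T-box and type 1 factor genes none of 4 passed between the periphery stages (Runx3 0.53, Stat4 0.35, Il18rap 0.34) and none of 3 in fetal liver (Runx3 -0.31, Il18rap -0.24, Stat4 -0.10). In periphery against fetal liver 1 of 4 was higher at E13.5, the interleukin receptor gene Il2rb (3.04), with Stat4 at 0.87 and Il18rap at 0.26. At E14.5 the count was 3 of 4, Il2rb (3.04), Stat4 (1.33) and Runx3 (1.04).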

How the data were processed

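Live CD45+ F4/80- IL7Ra+ cells were profiled in 4 libraries. The authors deposited UMI counts per gene and barcode, made with Cell Ranger version 3 on mm10 per the submitters' processing notes, and with versions 3.0.0 (fetal liver) and 3.0.1 (periphery) per the file headers. Gene lists held 31053 (fetal liver) and 28427 (periphery) genes, of which 27566 were shared by identifier.

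Barcodes with at least 500 genes, at most 10% mitochondrial UMIs and no doublet mark were kept. Scrublet in scanpy 1.11.5 marked doublets, by its automatic threshold in fetal liver (3.63 and 7.06%) and, since that marked under 0.5% in periphery, by an expected rate of 0.8% per 1000 barcodes there (3.13 and 3.71%). Cells were clustered per tissue over both stages (counts scaled to 10000 per cell, 2000 variable genes without the 5 chemokines and without haemoglobin, mitochondrial, ribosomal, histone and cell cycle genes, 30 components, 15 neighbours, Leiden resolution 1). Names needed at least 3 and over 50% of a class's markers detected, meaning at 20 CPM and 1 log2 unit over the clusters' lower quartile. The class was passed over where another had as many markers among the 10 leading genes, and dendritic cells needed 3 markers other than class II genes. These last conditions were settled after the clusters had been seen.

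CPM came from UMIs summed over cells, reported for classes and clusters with 50 cells or more in a library. Sub-clusters were summed over both stages and are given at any size, from 22 to 108 cells. Folds are log2 ratios with a pseudocount of 5 CPM, so those of low genes are understated, minus the median of genes at 10 CPM or more in either library, and 1 log2 unit is a rule of size, not a test. Fold and share functions were tested on simulated data. Named list genes are the up to 3 with the largest fold (some are not reported here), and similar genes are the 5 with the highest correlation among genes at 20 CPM or more in a cluster. The members and lists were chosen with earlier results of these data known. Alternatives covered pseudocount, scaling, filters, doublets, cell weights, clustering and thinning depth.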

Additional observations from a re-analysis of the deposited data

Results flagged for a closer look

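For 2 genes the stage difference was unlike in the 2 tissues, and only that of Cxcl10 pointed in opposite directions. The difference between the tissues was not tested, with 1 library per group. Ccl3 had a log2 fold of 0.038 in fetal liver and -0.99 in periphery. Its fetal liver intervals overlapped between stages, so no direction is read there. Cxcl10 had a log2 fold of 0.72 in fetal liver and -1.06 in periphery, and opposite directions were also seen inside LTi-like cells (2.31 and -1.29). LTi-like cells held only 5.77 and 8.10% of the Cxcl10 UMIs of fetal liver, in order of stage. FL15, which held most of them, had a log2 fold of -0.12 within the cluster, so the rise in fetal liver was not seen there.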

How the results depend on the processing

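No paired analysis was possible because each group is 1 library and the labels carry no replicate numbers. Over 10 alternatives each, the number of measured chemokine genes past the limit ranged from 2 to 4 between the periphery stages and between the tissues at E13.5, and stayed at 3 between the tissues at E14.5. In fetal liver it was 0, and 1 with each cell given equal weight. No direction of a fold past the limit reversed. Ccl3 in mast cell or basophil-like cells ranged from 1056 to 1457 CPM over both fetal liver stages in the other clusterings. In LTi-like cells of periphery at E13.5, whose number ranged from 531 to 1242 (563 as reported), Ccl5 ranged from 170 to 512 CPM (196 as reported), and Ccl4 in the B lineage-like cells of the earlier fetal liver library from 20.7 to 67.0 CPM (23.2 as reported). The cause was not tested. Without the richest cell, an alternative chosen after the data were seen, 72 of 151 cluster levels with at least 30 UMIs left their interval. Depth limits Xcl1 most, which rests on 67 to 354 UMIs per library.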
